A study of Neurospora crassa with 12 samples.

Results

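A set of 67 genes of the filamentous fungus Neurospora crassa had fewer reads in the Δclr-5 strain than in the wild-type (WT) strain on each of 3 cellulose media, out of 9730 genes in the count table. The members were chosen by their measured levels in all 12 libraries, in CPM, the count of a gene scaled to the column total of its library. On each medium the WT mean had to reach 5 CPM, the Δclr-5 mean had to be at most 0.6 times the WT mean, and both Δclr-5 libraries had to lie below both WT libraries. Of the 6618 genes that reached the WT level on all media, the 67 members were 1.01%. Because these values chose the members, the levels of Δclr-5 beside WT are given below as a description, without a test.

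RNA-seq was carried out on mycelium of the deletion mutant Δclr-5 (NCU05383 deleted) and of the WT strain FGSC 2489, each a single strain from the Fungal Genetics Stock Centre. Precultured mycelium of both was moved to Vogel's salts with 2% Avicel, a crystalline cellulose, as the carbon source. The Avicel medium kept its usual nitrogen, whereas the His and Leu media had 50 mM histidine or 50 mM leucine as the only nitrogen source. Harvest followed 8 h later by the sample labels and 4 h later by the methods. Each of the 6 groups had 2 independent cultures, and the 12 libraries held 16797962 to 20381308 counts. The strains may differ in more than the deletion, and an effect of clr-5 and one of the rest of the genome cannot be told apart with 1 mutant strain.

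On cellulose, N. crassa secretes cellulases, xylanases and oxidative enzymes that release sugars, and the genes for them are switched on together by transcription factors of the Zn2Cys6 family, which bind DNA through a zinc cluster. Clr-5 belongs to this family. Nitrogen enters the same cells through permeases and is built into amino acids, and the sexual identity of the fungus is set by one of a pair of unlike DNA segments at the mating-type locus on chromosome I.

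The deleted gene was itself a member. NCU05383 (clr-5, listed as col-24 in the reference, chromosome II from 1471066) had 1.76 and 1.91 CPM in Δclr-5 on Avicel, against 27.8 and 21.5 CPM in WT. On His it had 1.94 and 1.54 CPM in Δclr-5, against 56.1 and 46.9 CPM in WT, and on Leu 3.09 and 2.81 CPM in Δclr-5, against 21.4 and 17.9 CPM in WT. Every Δclr-5 library was far below every WT library of its medium, with some reads still assigned to the locus in the mutant.

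The rule was met by 329 of 6928 genes on Avicel alone (4.75%), by 837 of 7324 on His (11.4%) and by 473 of 7120 on Leu (6.64%), each counted over the genes at the WT level on that medium. It was met on exactly 2 media by 221 genes and on exactly 1 by 996. The members took 10.1% and 7.38% of all counts in the Δclr-5 libraries on Avicel, against 17% and 16.8% in the WT libraries. On His they took 0.277% and 0.327% in Δclr-5, against 3.84% and 1.81% in WT. On Leu the shares were 1.72% and 1.2% in Δclr-5, against 7.66% and 7.52% in WT. A smaller share in the mutant on each medium follows from the rule, which required lower CPM in Δclr-5 for every member.

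The ratio of the Δclr-5 mean to the WT mean had a median over the 67 members of 0.495 on Avicel, 0.123 on His and 0.336 on Leu. Over all 6618 genes at the WT level the medians were 1.13, 0.963 and 1.18. The ratio was below 0.1 for 7 members on Avicel, 33 on His and 13 on Leu. Of the 63 members with reads in Δclr-5, 43 had their lowest ratio on His. Among the genes nearest to the limit, nde-2 (largest ratio 0.596), gh61-5 (0.595) and gh61-3 (0.585) were inside it, and NCU01944 (0.602), NCU03756 (0.605) and gh61-7 (0.607) were outside it. At the WT level, NCU02344 (5.03 CPM), NCU16528 (5.7 CPM) and NCU09969 (6.54 CPM) were the lowest members, and NCU05983 (4.33 CPM), NCU01946 (2.48 CPM) and NCU01979 (2.15 CPM) stood just outside.

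**Figure D1:**
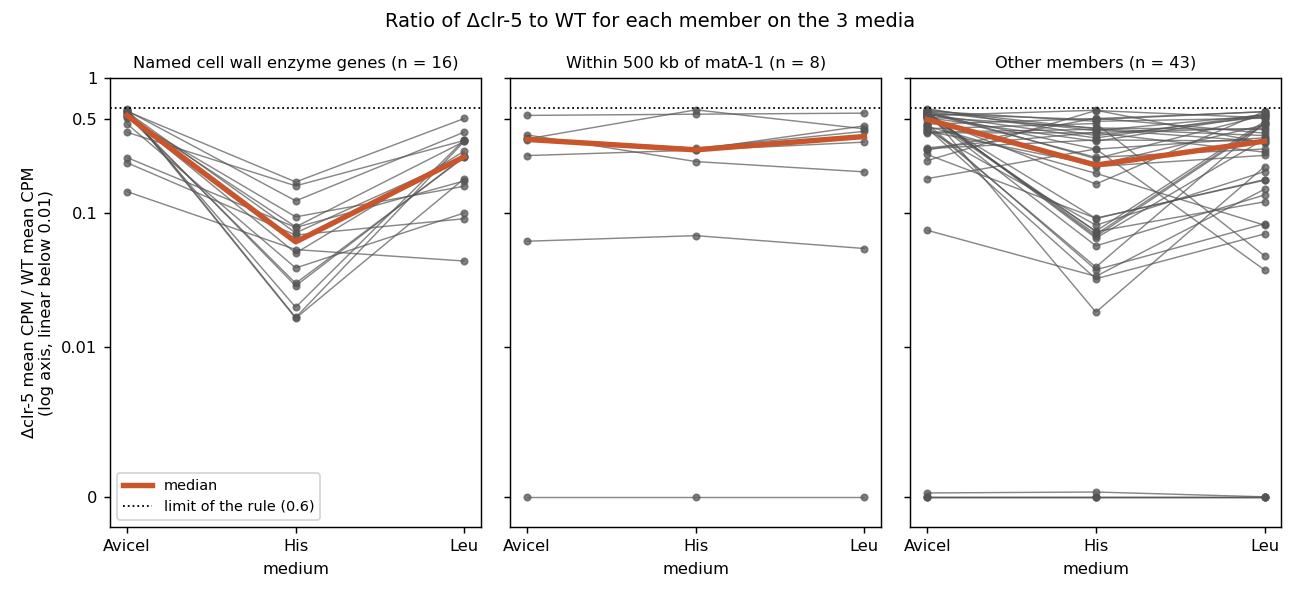
Ratio of Δclr-5 to WT mean CPM (vertical axis, logarithmic above 0.01 and linear below) on the 3 media (horizontal axis) for the 16 named cell wall enzyme genes, the 8 members within 500 kb of matA-1 and the 43 other members. Thin lines are members, thick lines are medians and the dotted line is the limit of 0.6; the cell wall enzyme genes dip on His to a median of 0.0609, and the genes near matA-1 vary less between media.

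Genes that a gene list or a product named as enzymes that take plant cell walls apart formed the largest named group, with 16 members. The group may be incomplete, since 39 members have neither a symbol nor a product in the sources used. A symbol alone, as for asd-1, which has no product and stands in no list, did not place a gene in it. From the cellulase list these were the endoglucanase genes gh5-1 and gh7-1, the family 7 gene gh7-2 and 5 genes of lytic polysaccharide monooxygenases, which cut cellulose by oxidation (gh61-1, gh61-2, gh61-3, gh61-5 and gh61-6). The group also held the cellobiose dehydrogenase gene cdh-1, whose enzyme passes electrons to the monooxygenases, the β-glucosidase gene gh1-1, the xylanase genes gh10-1, gh10-3, gh11-1 and gh11-2, an acetyl xylan esterase gene (NCU00710) and an arabinogalactan endo-galactosidase gene (NCU00972). Their median ratio of Δclr-5 to WT was 0.53 on Avicel, 0.0609 on His and 0.262 on Leu. All 16 had their highest ratio on Avicel, and 15 had their lowest on His, gh11-1 being the exception with its lowest on Leu. The largest of the 3 ratios of a gene exceeded the smallest by a median of 7.31 times in this group.

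The endoglucanase gene gh5-1 showed this order. On Avicel it had 8699 and 5767 CPM in Δclr-5, against 14142 and 12300 CPM in WT. On His the values were 52 and 129.9 CPM in Δclr-5, against 4960 and 1389 CPM in WT, and on Leu 1396 and 781 CPM in Δclr-5, against 4316 and 3975 CPM in WT. The mutant cultures were below the WT cultures throughout, and the WT cultures on His differed from each other several-fold.

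The 3 lowest ratios on His in this group belonged to monooxygenase genes, gh61-3 with 0.0165, gh61-5 with 0.0167 and gh61-1 with 0.0199. gh61-1 had 36.1 and 76 CPM in Δclr-5 on His, against 4026 and 1615 CPM in WT, while on Avicel it had 7063 and 5555 CPM in Δclr-5, against 11297 and 11085 CPM in WT. On Leu it had 1604 and 1056 CPM in Δclr-5, against 3835 and 3767 CPM in WT. Among the monooxygenase genes named in this group, gh61-2 had the highest ratios on His and Leu, 0.17 and 0.504, with 0.569 on Avicel.

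Among the xylanase genes, which degrade the main hemicellulose of plant walls, gh11-1 was the lowest in the mutant on Avicel, with a ratio of 0.144. It had 669.9 and 338 CPM in Δclr-5 on Avicel, against 3617 and 3374 CPM in WT. The levels on His were 3.94 and 5.76 CPM in Δclr-5, against 139 and 42.6 CPM in WT, and on Leu 49.3 and 28 CPM in Δclr-5, against 873 and 887 CPM in WT. The other family 11 gene, gh11-2, was less reduced on Avicel. It had 11509 and 10814 CPM in Δclr-5, against 19426 and 20214 CPM in WT on that medium, a ratio of 0.563, with 0.0711 on His and 0.261 on Leu. gh10-3 had ratios of 0.236, 0.0685 and 0.0906 on Avicel, His and Leu, and the esterase gene NCU00710 had 0.258, 0.078 and 0.173.

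The enzymes that act on cellobiose were represented by cdh-1 and gh1-1. cdh-1 had 9512 and 3689 CPM in Δclr-5 on Avicel, against 14759 and 14019 CPM in WT. Its levels on His were 9.97 and 11.6 CPM in Δclr-5, against 499 and 53.8 CPM in WT. On Leu it had 434 and 247 CPM in Δclr-5, against 3267 and 3524 CPM in WT. Both pairs with the widest spread, Δclr-5 on Avicel and WT on His, were also the pairs of libraries that differed most over the genes. Each gene with enough counts was tested for an equal share of the library total in both cultures. The mean chi-square was 224 and 91.4 in these pairs, where the other 4 groups had 15.2 to 37.6. gh1-1 kept more of its WT level on His than cdh-1, with 475 and 688 CPM in Δclr-5, against 6160 and 3287 CPM in WT, a ratio of 0.123.

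Markers of conidia and of aerial growth also differed between the strains. Of 10 conidiation genes, Δclr-5 was above WT with no overlap for 10 on Avicel, 9 on His and 9 on Leu, and none of the markers was at 0 in every library. The share of all genes without overlap was not counted, so these counts do not set the markers apart from other genes. The 7 markers at the WT level had median ratios of 7.93 on Avicel, 2.55 on His and 1.63 on Leu. Over all genes at that level the medians were 1.13, 0.963 and 1.18. The markers eas, con-6 and con-13 were below that level in WT on some medium and are not in the marker medians. Their ratios on Avicel were 175, 62.1 and 42.1. The summed level of all 10 conidiation genes was 3474 and 36192 CPM in the 2 Δclr-5 cultures on Avicel, against 270.1 to 292 CPM in WT. On His this sum was 71136 to 84306 CPM in Δclr-5, against 1192 to 1538 CPM in WT. On Leu the sum was 1404 to 1944 CPM in Δclr-5, against 694 to 756 CPM in WT. In Δclr-5 on Avicel and His most of the sum came from eas, which encodes the hydrophobin of the spore coat. The part of these cell types in the lower levels of the members was not tested, and fewer cells of a type and less RNA per cell cannot be told apart in bulk samples.

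**Figure D2:**
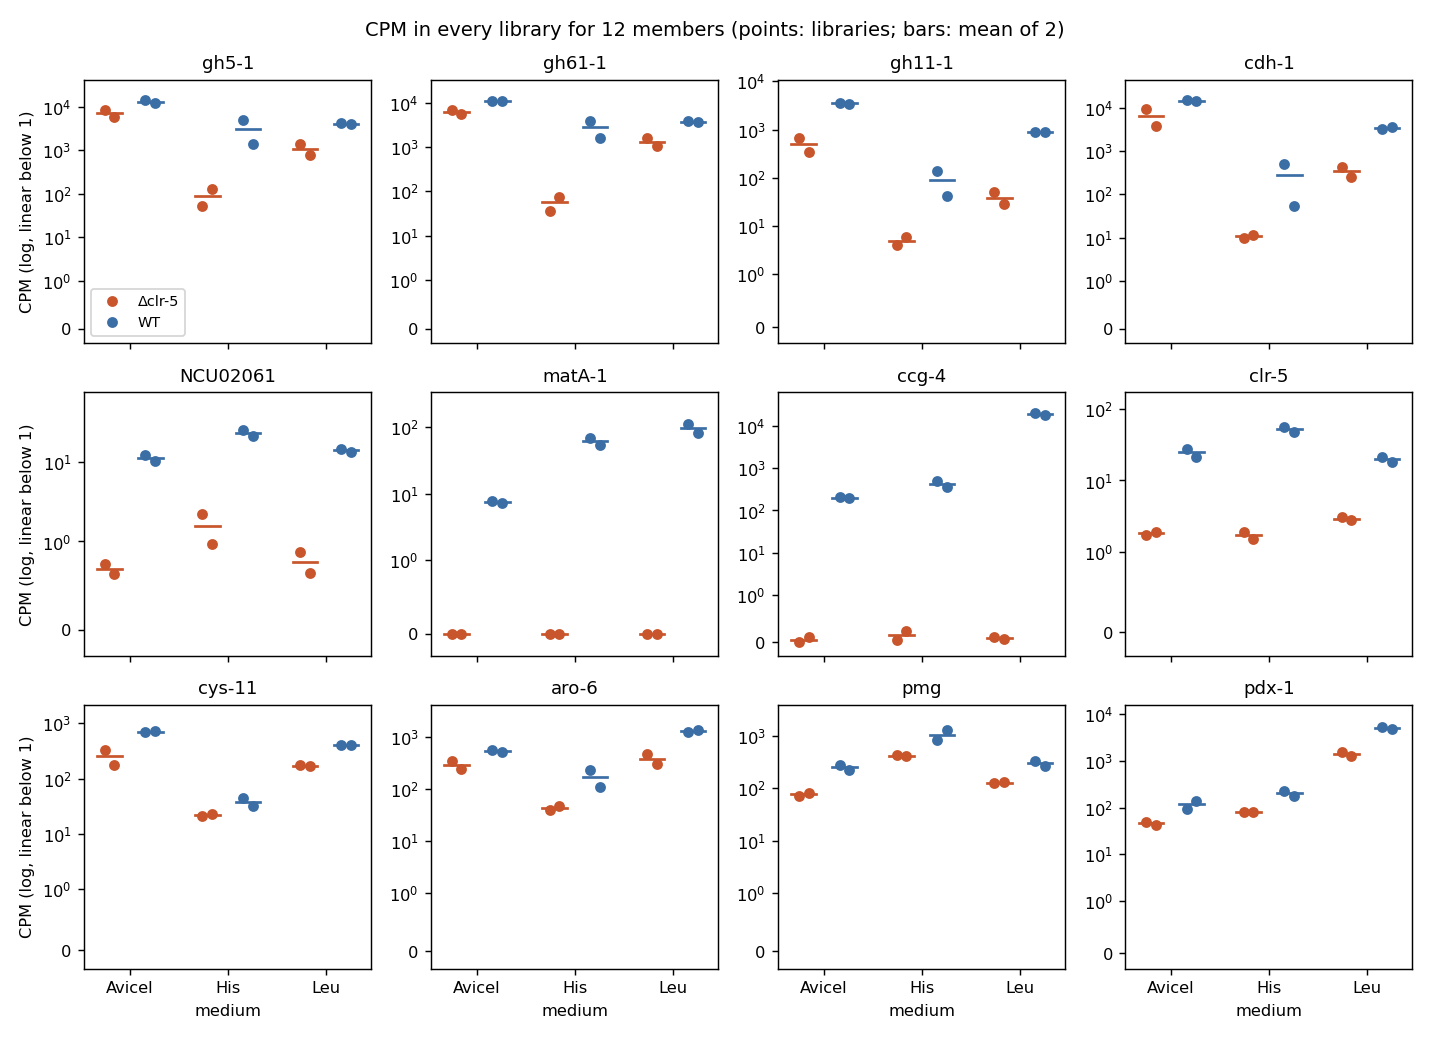
CPM in every library (vertical axes, logarithmic above 1 and linear below) for 12 members on Avicel, His and Leu, with Δclr-5 left of WT. Points are the 2 cultures of a group and bars their mean; the mutant points lie below the WT points in each panel, and matA-1 is at 0 in all Δclr-5 libraries.

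A second kind of member had few or no reads in the mutant. matA-1, the mating-type gene of A strains (chromosome I from 1860692), had 0 counts in all 6 Δclr-5 libraries. In WT it had 7.77 and 7.3 CPM on Avicel, 70 and 55.2 CPM on His and 112 and 83.6 CPM on Leu. With a floor of 3 counts over each Δclr-5 group, it was at least 94.5-fold lower on Avicel, 774-fold lower on His and 1266-fold lower on Leu. NCU16528 on chromosome II and the pair NCU09968 and NCU09969 on chromosome VI also had 0 counts in every Δclr-5 library. Whether the mutant strain carries the sequences of matA-1 and of these loci was not tested. NCU16528 had 4.79 to 10.9 CPM in the WT libraries and NCU09969 had 6.31 to 19.7 CPM. NCU09968 had 88.9 and 80.1 CPM in WT on Avicel, 159 and 134 CPM on His and 127 and 114 CPM on Leu, so that it was at least 1060-fold, 1811-fold and 1565-fold lower in Δclr-5. NCU09969 overlaps it by 1364 bp, and reads of the pair may not be separable, since the strand setting of the counting is not given in the sources used here.

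The pheromone precursor gene of A strains, ccg-4, had the lowest ratios of the members with reads in the mutant. On Leu it had 0.0981 and 0.054 CPM in Δclr-5, against 20642 and 17876 CPM in WT. On the His medium there were 0.0512 and 0.228 CPM in Δclr-5, against 486 and 368 CPM in WT. On Avicel it had 0 and 0.106 CPM in Δclr-5, against 208 and 193 CPM in WT. The mating list held 7 genes, and the genes of the opposite mating type ran the other way. mfa-1, the pheromone precursor gene of a strains, had 28022 and 29820 CPM in Δclr-5 on Leu, against 2.29 and 2.38 CPM in WT. The cultures labelled Δclr-5 and WT thus differed in mating-type transcripts as well as in clr-5.

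Members lay on all 7 chromosomes. Chromosome VI had the highest share of members among its genes at the WT level (13 of 611, 2.13%) and chromosome V the lowest (5 of 1104, 0.453%), while chromosome I, with 18 of 1729 (1.04%), was near the 1.01% of all genes. Within 500 kb of the start of matA-1 there were 8 members among 182 genes at the WT level (4.4%), against 59 of 6435 genes elsewhere (0.917%). The same window held 7 of 181 genes (3.87%) that met the mirrored rule, higher in Δclr-5 on every medium, against 2.35% elsewhere. Besides matA-1, the other 7 members of the window lay on one side of it. All 8 members were between 1481604 and 1862194 of chromosome I, a stretch of 381 kb with 109 genes. This one-sided placing depends on the limit of 0.6. On the other side, at 49.2 kb, NCU01944 missed the set by its ratio on Avicel alone, with 0.602, 0.549 and 0.31 on Avicel, His and Leu. The 8 members were mdm12 (mitochondrial shape and inheritance), NCU02061, NCU02059 (an endothiapepsin, an acid protease), NCU02058, NCU02022, NCU02008, cys-11 and matA-1.

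The ratios of the members near matA-1 varied less between media than those of the cell wall enzyme genes. The largest ratio of a gene exceeded the smallest by a median of 1.34 times in the 7 with mutant reads, and by 1.88 times at most (NCU02059, with 0.38, 0.241 and 0.202 on Avicel, His and Leu). Such even ratios were not particular to this stretch, since 17 of the 40 members outside both groups with mutant reads also differed by less than 2 times between media. NCU02061 had 0.747 and 0.635 CPM in Δclr-5 on Avicel, against 12.2 and 10.3 CPM in WT. On His it had 2.2 and 0.969 CPM in Δclr-5, against 25.2 and 21.5 CPM in WT, and on Leu 0.883 and 0.648 CPM in Δclr-5, against 14.8 and 13.3 CPM in WT. Its ratios were 0.0616, 0.0678 and 0.0544. mdm12 had ratios of 0.531, 0.542 and 0.552 on Avicel, His and Leu. Around clr-5 itself, 4 of 123 genes within 500 kb were members (3.25%), against 0.97% elsewhere, and the mirrored rule was met by 4 of 127 (3.15%), against 2.38% elsewhere. The 4 members were the deleted gene itself, gh61-6, NCU03329 and NCU16528.

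**Figure D3:**
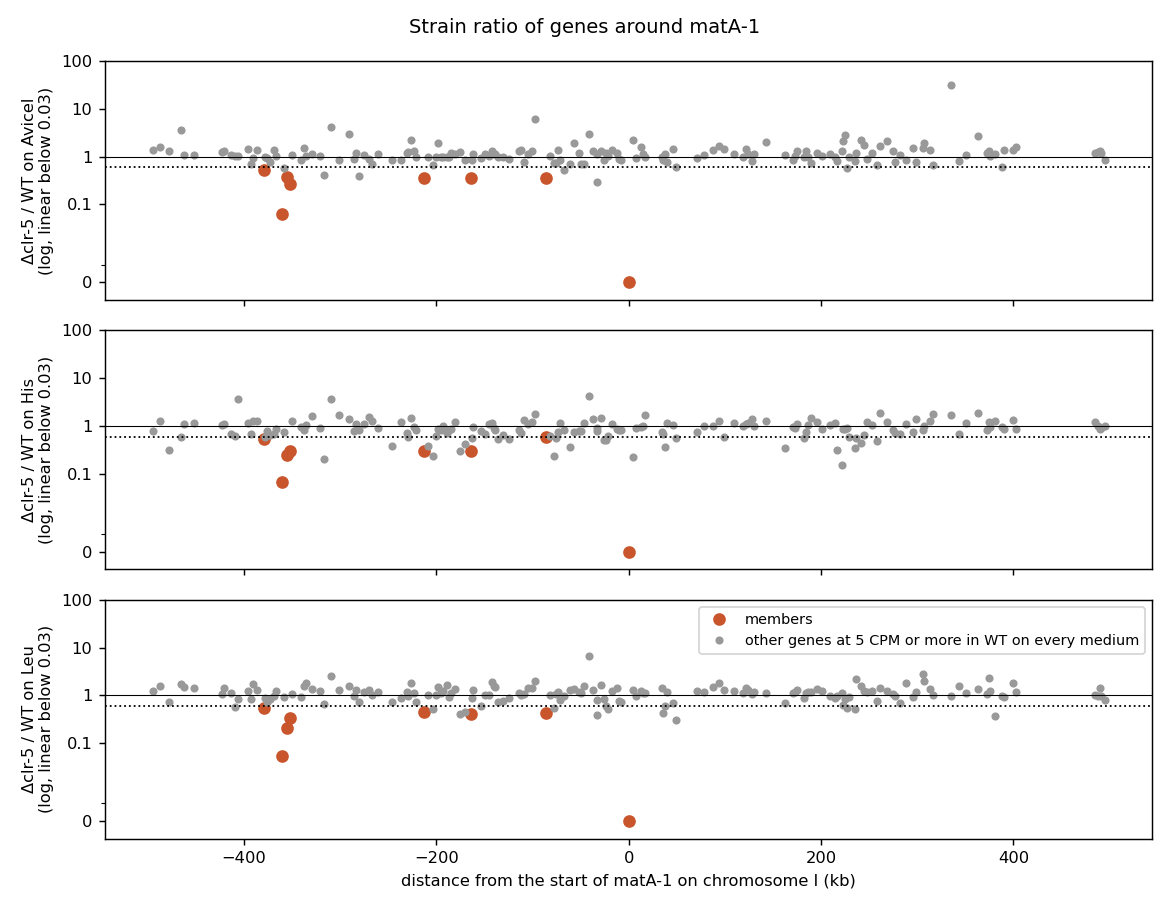
Ratio of Δclr-5 to WT mean CPM (vertical axes, logarithmic above 0.03 and linear below) against distance from the start of matA-1 on chromosome I in kb, for Avicel, His and Leu from top to bottom. Orange points are the 8 members and grey points the other genes at 5 CPM or more in WT on every medium. The members lie from -379 to 0 kb and none lies on the other side. There the grey point of NCU01944, at 49.2 kb, is just over the limit of 0.6 on Avicel (0.602) and under it on His (0.549) and Leu (0.31).

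Members also sat side by side. There were 10 pairs of members next to each other in gene order, 9 of them outside the window of matA-1, with 19 members in them. Of the 94 genes at the WT level that directly neighboured a member, 19 were members (20.2%), against 1.01% of all genes at that level. The pair farthest apart was gh61-6 and NCU16528, with 59401 bp between them. The xylanase gene gh11-2 lies 1926 bp from NCU07224, gh61-3 lies 2932 bp from NCU02915, and gh61-6 lies 159 bp from NCU03329. Other close pairs were NCU09524 with NCU09523, 85 bp apart, NCU05751 with NCU05752, 175 bp apart, and NCU07898 with NCU07897, 1436 bp apart. In all, 9 members overlap a gene of the reference, and their counts are less certain for that reason. Members had a median gene length of 2054 bp, against 2497 bp for all genes at the WT level.

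Amino acid and sulfur metabolism contributed single members from 3 short lists. cys-11, the gene of sulfate adenylyltransferase (ATP sulfurylase), which activates sulfate for the synthesis of cysteine and methionine, was 1 of 13 matched genes of the sulfur list. It had 325 and 178 CPM in Δclr-5 on Avicel, against 703 and 714 CPM in WT. On His it had 21.3 and 22.9 CPM in Δclr-5, against 44 and 31.7 CPM in WT, and on Leu 176 and 168 CPM in Δclr-5, against 409 and 407 CPM in WT. The mutant ratio stayed between 0.355 and 0.584 while the level of the gene in both strains was lowest on His.

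aro-6, which encodes a first enzyme of the shikimate pathway to aromatic amino acids, was 1 of 10 genes of the aromatic list. It had 466 and 301 CPM in Δclr-5 on Leu, against 1214 and 1355 CPM in WT. Its His levels were 39.9 and 47.6 CPM in Δclr-5, against 228 and 109.9 CPM in WT, and on Avicel 349 and 238 CPM in Δclr-5, against 556 and 507 CPM in WT. pmg, an amino acid permease gene, was 1 of 4 permease genes. On Avicel it had 72 and 81.7 CPM in Δclr-5, against 276 and 227 CPM in WT. On His it had 425 and 411 CPM in Δclr-5, against 823 and 1285 CPM in WT, and on Leu 127 and 129 CPM in Δclr-5, against 331 and 271 CPM in WT. The permease gene was thus lower in the mutant at ratios of 0.305 to 0.426.

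pdx-1, a gene of vitamin B6 (pyridoxine) synthesis, had 1504 and 1283 CPM in Δclr-5 on Leu, against 5132 and 4723 CPM in WT. On Avicel it had 50 and 42.1 CPM in Δclr-5, against 93.4 and 141 CPM in WT, and on His 80.6 and 78.7 CPM in Δclr-5, against 226 and 179 CPM in WT. The remaining named members were gst-3, a glutathione S-transferase gene, with ratios of 0.457, 0.503 and 0.565 on Avicel, His and Leu, nde-2 (an alternative NADH dehydrogenase of mitochondria), with 0.596, 0.376 and 0.518, and asd-1 (named for ascus development), with 0.406, 0.227 and 0.452. In all, 25 members have a symbol in the reference and 39 have neither a symbol nor a product in the sources used.

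Several other groups of the same pathways held no member. The lists of sugar transporters (3 matched genes), regulators of plant biomass genes (6), histidine metabolism (5), branched-chain amino acids (8), serine and threonine (5), arginine and lysine (12), ammonium and nitrate assimilation (13), purine and pyrimidine synthesis (8) and conidiation (10) all had 0 members. Members were 1.01% of all genes at the WT level, so 0 members in lists this short does not set these pathways apart. Some matched genes were also below that level, with 7 of the 10 conidiation genes reaching it. The 8 genes of folding and translocation in the endoplasmic reticulum also had 0 members, although the rule was met by 5 of them on Avicel and by all 8 on Leu. On His none met it, and their median ratio there was 1.84. Of the 14 genes of the cellulase list 8 were members, of 6 cellobiose dehydrogenase and β-glucosidase genes 2, and of 6 matched hemicellulase genes 4.

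The rule set no direction between media, so the response of the members to the nitrogen source could be tested within each strain. Log2 fold changes are from edgeR's quasi-likelihood test after TMM scaling, and calls needed an adjusted p under 0.05 and a change of at least 0.5 in either direction. All 67 members passed the filter on low counts. The His and Leu comparisons of a strain share its Avicel libraries, and those of Δclr-5 and of WT share none. In the Δclr-5 comparisons, the 4 members with no reads gave no value.

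Most members were lower on either amino acid medium than on Avicel in both strains. On His, 47 of 63 members were lower than on Avicel in Δclr-5 (27.6% of the 8805 genes tested were called lower) and 46 of 67 in WT (24.4%). On Leu, 45 of 63 were lower in Δclr-5 (17.8% of all genes) and 43 of 67 in WT (19.6%). Fewer members were called higher, 8 on His in Δclr-5 and 7 in WT, where 27.2% and 27.7% of all genes were (with library size as the only scaling, WT on His gave 15 higher and 43 lower), and 6 on Leu in Δclr-5 and 9 in WT, where 19.5% and 22.2% were. The median log2 change of the members was -4.13 in Δclr-5 and -2.70 in WT on His, and -2.46 in Δclr-5 and -1.47 in WT on Leu. Over all genes tested these medians lay between -0.03 and 0.08.

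The 16 cell wall enzyme genes were lower nearly throughout. On His, all 16 were lower than on Avicel in both strains, with a median log2 change of -6.64 in Δclr-5 and -3.63 in WT. On Leu, 16 were lower in Δclr-5 (median -3.48) and 15 in WT (median -2.22), cdh-1 being the one not called in WT (-2.25, standard error 0.84, adjusted p = 0.0523). Of the members other than these 16 genes, 31 of 47 were lower on His in Δclr-5 (66%) and 30 of 51 in WT (58.8%), and 29 of 47 on Leu in Δclr-5 (61.7%) and 28 of 51 in WT (54.9%). These other members may still hold cell wall enzyme genes, since 39 members have neither a symbol nor a product, and asd-1 has only a symbol. gh5-1 fell by 6.68 on His in Δclr-5 (standard error 0.76, adjusted p = 3.66e-05) and by 2.62 in WT (standard error 0.63, adjusted p = 0.00489). On Leu it fell by 2.95 in Δclr-5 (standard error 0.64, adjusted p = 0.00422) and by 1.84 in WT (standard error 0.61, adjusted p = 0.0317), and the WT call was lost without any 1 of the 4 WT libraries (adjusted p up to 0.136).

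**Figure D4:**
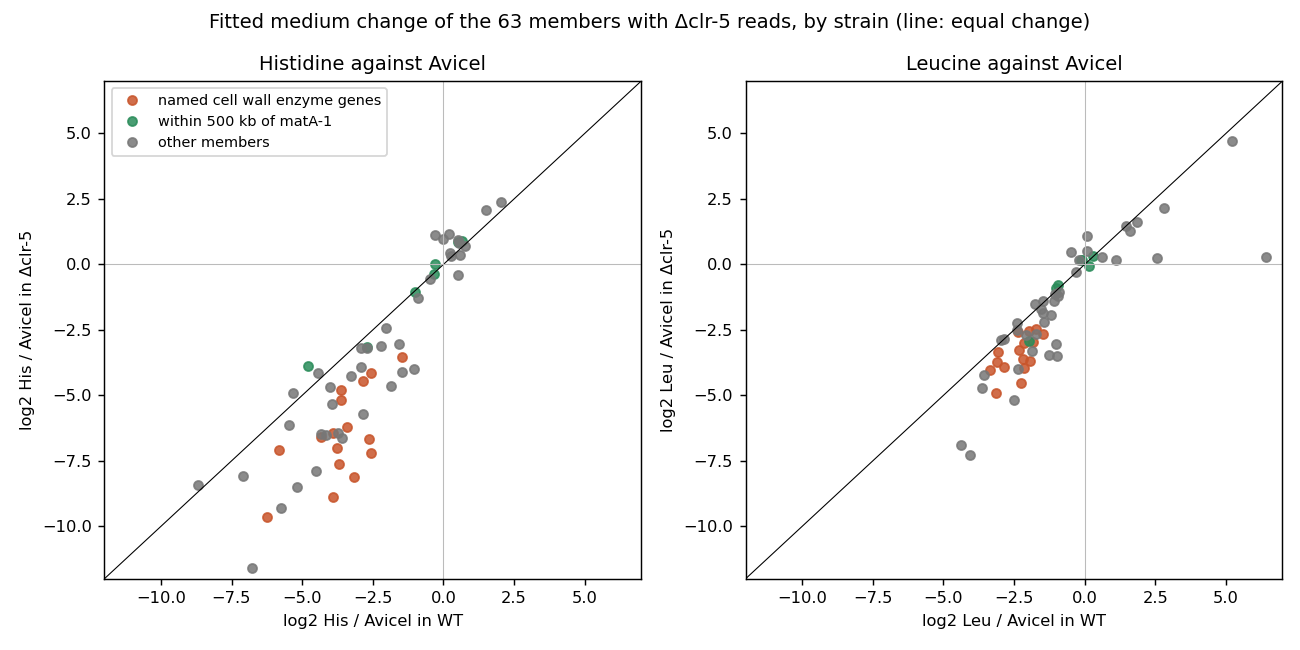
Log2 change against Avicel in Δclr-5 (vertical axes) and in WT (horizontal axes) for the 63 members with reads in Δclr-5, on His (left) and Leu (right), from edgeR. The line marks equal change. On His 46 members were called lower in both strains and on Leu 42, and no member was called in opposite directions. Joint calls over all genes were not counted.

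Both strains moved the members the same way where both were called. On His, 46 of the 63 members were lower in both strains and 4 higher in both. On Leu, 42 were lower in both and 5 higher in both, and none was called higher in one strain and lower in the other on either medium. Joint calls over all genes were not counted, so this agreement cannot be read as particular to the members. Among the largest falls were those of 3 loci without a product in the sources used and of cdh-1. cdh-1 fell by 9.65 on His in Δclr-5 (adjusted p = 7.6e-05) and by 6.26 in WT (adjusted p = 0.000499). NCU07898 fell by 11.57 on His in Δclr-5 (adjusted p = 1.09e-05) and by 6.76 in WT (adjusted p = 0.000101). NCU02344 fell by 7.28 on Leu in Δclr-5 (adjusted p = 3e-05) and by 4.06 in WT (adjusted p = 0.000317), while NCU07326 changed by -6.88 on Leu in Δclr-5 (adjusted p = 3.68e-05) and by -4.37 in WT (adjusted p = 0.000259).

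Some members rose on His and others on Leu. On His, pmg rose by 2.09 in Δclr-5 (standard error 0.21, adjusted p = 9.75e-06) and by 1.51 in WT (standard error 0.20, adjusted p = 9.13e-05). gst-3 rose by 2.37 in Δclr-5 (adjusted p = 1.34e-05) and by 2.04 in WT (adjusted p = 3.85e-05). On Leu the same gene was lower, at -1.52 in Δclr-5 (adjusted p = 0.000579) and -1.77 in WT (adjusted p = 0.00018). pdx-1 rose on Leu by 4.70 in Δclr-5 (standard error 0.29, adjusted p = 1.04e-06) and by 5.22 in WT (standard error 0.30, adjusted p = 3.46e-07). Its changes on His were 0.43 in Δclr-5 and 0.22 in WT, neither called. NCU09848 rose on Leu by 2.14 in Δclr-5 (adjusted p = 1.39e-05) and by 2.81 in WT (adjusted p = 1.23e-06).

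The A mating genes responded to the medium in WT. matA-1 rose by 2.50 on His (standard error 0.21, adjusted p = 2.54e-05) and by 3.53 on Leu (standard error 0.21, adjusted p = 7.67e-06). ccg-4 rose by 6.42 on Leu (standard error 0.36, adjusted p = 3.45e-07), and its change on His was 0.53 (adjusted p = 0.137). In Δclr-5 matA-1 had no reads and ccg-4 at most 0.228 CPM, so that a response there could not be measured.

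Among the other members near matA-1, cys-11, NCU02059 and NCU02008 were called lower on both amino acid media in both strains, and mdm12 was called higher on His in both. cys-11 changed by -3.89 on His in Δclr-5 (standard error 0.31, adjusted p = 2.26e-06) and by -4.78 in WT (standard error 0.32, adjusted p = 7.1e-07). Its calls on Leu were lost when single libraries were left out, with an adjusted p of up to 0.483 in Δclr-5 (without replicate 1 on Avicel or either replicate on Leu) and 0.0777 in WT (without replicate 2 on Avicel or either on Leu). The call of mdm12 on His in WT was lost without replicate 1 on Avicel or replicate 2 on His (adjusted p up to 0.137). NCU02059 fell by 3.16 on His in Δclr-5 (adjusted p = 4.42e-05) and by 2.70 in WT (adjusted p = 0.000117). NCU02061, NCU02058 and NCU02022 were called in none of the 4 comparisons. aro-6 was lower on His, at -3.12 in Δclr-5 (adjusted p = 6.45e-05) and -2.21 in WT (adjusted p = 0.000514). On Leu it was 1.11 higher in WT (adjusted p = 0.0276, up to 0.124 and not called without any 1 of the 4 WT libraries) and its value in Δclr-5 was 0.16 (adjusted p = 0.741). Whether its change differed between the strains was not tested.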

How the data were processed

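The authors deposited 1 table of raw read counts, with genes in rows and the 12 libraries in columns. By the methods and the submitters' notes, paired-end reads were aligned with TopHat (TopHat2 2.0.8b in the notes) and reads mapping uniquely to 1 gene were counted with HTSeq (0.13.5 in the notes) on the OR74A genome. Symbols and coordinates were paired by locus with the RefSeq NC12 reference (9729 of 9730 loci), and products are those of the paper and its supplement. CPM for the rule were computed from column totals, and bounds for genes without reads from 3 counts over a group. Counts of 8805 genes that passed filterByExpr were fitted with edgeR 4.0.16 (R 4.3.3; TMM, robust quasi-likelihood, all 12 libraries in 6 groups, 6 residual degrees of freedom, common biological coefficient of variation 0.174), with Benjamini-Hochberg adjustment over all of them and standard errors taken as the absolute log2 change over the square root of F. The fit was tested on simulated data. The thresholds are those of the methods, which used DESeq. The fit was repeated in DESeq2 1.42.0, with 2 other scalings, with other filters and limits, with replicate number as a block and without single libraries. Named genes were clr-5, the 10 members with the lowest largest ratio, the 8 with the highest WT mean CPM, members with a symbol or in a gene list, and the 3 largest called rises and falls per medium comparison. Genes named for their position or nearness to a limit are additional. The members and lists were chosen with earlier results of these data known.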

Additional observations from a re-analysis of the deposited data

Results flagged for a closer look

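The deleted gene itself was picked out by the order of its libraries on Leu against Avicel. Both Δclr-5 libraries on Leu were above both on Avicel, and both WT libraries on Leu were below theirs. This held for 1 of the 63 members with reads in both strains, and the same count over all genes was not made. The Δclr-5 values rest on the few reads left at the deleted locus, 33 and 36 counts on Avicel and 63 and 52 on Leu. The log2 change of clr-5 (NCU05383) was 0.48 in Δclr-5 (adjusted p = 0.116) and -0.49 in WT (adjusted p = 0.0421) by edgeR, and neither passed both thresholds. The difference between the strains was not tested.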

How the results depend on the processing

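The size of the set depended on its limits: 30 genes met a ratio of at most 0.5 and 121 a ratio of at most 0.7, and the rule found 105 genes with TMM-scaled totals and 113 with RLE-scaled totals, each holding 66 of the 67 members. Leaving out 1 library gave 53 (without Δclr-5 replicate 2 on Avicel, 46 of them members) to 82 genes (without Δclr-5 replicate 1 on Avicel, 63 of them members). With library size alone, the median change of all genes moved to 0.38 on His in Δclr-5 and 0.63 in WT, and to 0.23 on Leu in Δclr-5 and 0.14 in WT, and members higher on His in WT numbered 15. Without the 16 named cell wall enzyme genes, a choice made after seeing the data, 31 members were lower on His in Δclr-5 and 30 in WT. On Leu, 29 were lower in Δclr-5 and 28 in WT. Enzyme genes without a product and outside the gene lists may remain among them. Leaving out a library gave 47 to 48 lower and 7 to 9 higher on His in Δclr-5, 45 to 47 and 5 to 6 in WT, 40 to 45 and 6 to 7 on Leu in Δclr-5, and 29 to 38 and 8 to 8 in WT. The 2 replicate numbers are shared across groups without a stated pairing, and the replicate deviations of groups correlated at -0.26 to 0.46. With a replicate block the counts were 47 lower and 8 higher on His in Δclr-5, 46 and 7 in WT, 45 and 6 on Leu in Δclr-5, and 43 and 10 in WT. All other alternatives stayed within 1.5 times of each count. The cause of these shifts was not tested.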

Other observations

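Several other cellulase genes missed the set through a ratio above 0.6 on Avicel. gh7-4 (0.469 on Avicel) missed it on Leu, where its ratio was 0.727 and its WT libraries had 5.24 and 2.32 CPM. The cellobiohydrolase gene cbh-1 had 61456 and 43510 CPM in Δclr-5 on Avicel, against 78322 and 72606 CPM in WT, a ratio of 0.695, with 0.0221 on His and 0.253 on Leu. The ratios on Avicel, His and Leu were 0.751, 0.0155 and 0.126 for gh6-2, 0.642, 0.0377 and 0.0712 for gh6-3, and 0.616, 0.00932 and 0.108 for gh61-4. The monooxygenase gene gh61-4 was thus lower in the mutant on His than any of the 16 cell wall enzyme members, whose lowest ratio was 0.0165.

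The mirrored rule, higher in Δclr-5 on every medium, found 163 genes. The pheromone receptor gene pre-2 had 54.2 and 59 CPM in Δclr-5 on Leu, against 1.09 and 0.536 CPM in WT.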
